A study of Mus musculus with 4 samples.

Results

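The genes described here are 8 sarcomeric myosin chains, set beside 2 non-muscle heavy chains as a contrast. They were taken by symbol from the deposited tables: the heavy chains Myh3 (embryonic), Myh8 (perinatal), Myh1 (adult fast) and Myh7 (slow), the light chains Myl4, Myl1, Mylpf and Myl6b, and the non-muscle heavy chains Myh9 and Myh10. Of these 10 genes, 9 were among the 13824 gene symbols with values, through 27 of 36231 listed transcripts. Myh8 was not listed for any library, so its level was not analysed here.

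The values came from RNA sequencing of 4 C2C12 libraries. C2C12 is a myoblast line of the mouse that fuses into myotubes once serum is lowered. In the 2 siMEF2A libraries the cells received an siRNA directed against Mef2a, the gene of the transcription factor MEF2A, and in the 2 scrambled libraries an siRNA of scrambled sequence. Both groups were transfected at 30 nM by Lipofectamine and differentiated for 48 h under 2% horse serum, and the comparison asks how silencing Mef2a changes gene expression at that stage. The labels name 1 cell line and do not say whether replicates 1 and 2 were grown apart, so a p-value here sets a difference against a spread that may be technical alone. Relative to scrambled replicate 1, depth estimated from low values was 0.849 in both siMEF2A libraries and 1.05 in scrambled replicate 2. Absolute depth was unknown, and no counting intervals were computed.

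Myosin II is built from a pair of heavy chains, which carry the motor and the rod, and light chains of an essential and a regulatory kind that clamp the neck between them. In skeletal muscle the heavy chains are exchanged during development: embryonic and perinatal chains come first and are replaced by adult fast and slow chains. MEF2 proteins bind an AT-rich motif in many muscle genes and work with MyoD family factors, which bind E-boxes. Myh9 and Myh10 encode the heavy chains of non-muscle myosin IIA and IIB, which drive contractility at the cell cortex in most cell types.

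Sarcomeric chains fell in siMEF2A cells and non-muscle heavy chains did not pass the test. Of the 7 sarcomeric members listed, 5 reached the mean of 1 FPKM (fragments for each kilobase of a transcript, relative to all fragments of a library) required for a test. All 5 of those, Myh3, Myl4, Myl1, Mylpf and Myl6b, were lower in siMEF2A at a limma adjusted p under 0.05, and 0 were higher. Over the 11823 genes tested, 1.32% (156) were lower and 0.406% (48) higher by the same rule. After median-ratio scaling 133 were lower and 14 higher, and after quantile normalization 107 were lower and 11 higher, and the same 5 members were lower under both. The filter did not decide which of the 5 could be called, since the lowest value of any of them in any library was 12.3 FPKM, in Myh3. Their median log2 fold change, siMEF2A minus scrambled, was -1.44, beside 0.045 over all genes tested. In RNA from whole cultures, fewer cells that make these chains and less of their RNA per cell cannot be told apart.

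The targeted gene checked the labels. Mef2a had 12.7 and 14.3 FPKM in the siMEF2A libraries, against 25.85 and 32.2 FPKM in the scrambled libraries. The groups did not overlap, and 46.5% of the scrambled mean was left (log2 fold change -1.05 with SE 0.15, limma adjusted p = 2.83e-05). Of 6 markers of differentiating skeletal myoblasts, 5 were listed and tested and 3 fell (Myog, Ckm and Tmem8c), while the actin gene Acta1 was not listed. Their summed level was 330 to 370 FPKM in siMEF2A and 509 to 574 FPKM in scrambled libraries. Myog, the myogenin gene, lost its call without siMEF2A replicate 1 (limma adjusted p = 0.470), without siMEF2A replicate 2 (adjusted p = 0.181) and without scrambled replicate 2 (adjusted p = 0.128). It also missed the threshold after quantile normalization (adjusted p = 0.092), with its most abundant transcript alone (adjusted p = 0.068) and with genes of any level kept (adjusted p = 0.056). Tmem8c, which encodes the fusion protein myomaker, lost its call without the same libraries (adjusted p = 0.241, 0.055 and 0.148 in that order) and after quantile normalization (adjusted p = 0.083). Of 10 markers of undifferentiated or reserve myoblasts, 6 were listed and tested and 0 passed in either direction. Their summed level was 174 to 176 FPKM in siMEF2A and 153 to 158 FPKM in scrambled libraries, and Pax7, Pax3, Hey1 and Heyl were not listed. The 6 tested did not move as a set. Cd34 was at 137%, Id3 at 121%, Spry1 at 110% and Id1 at 103% of the scrambled mean. Id2 was at 82.45% and Myf5 at 93.8%. Cd34 missed the threshold (limma adjusted p = 0.283), with a log2 fold change of 0.44, and of 0.64 without scrambled replicate 2. The part of these shifts in the fall of the sarcomeric chains was not tested.

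**Figure D1:**
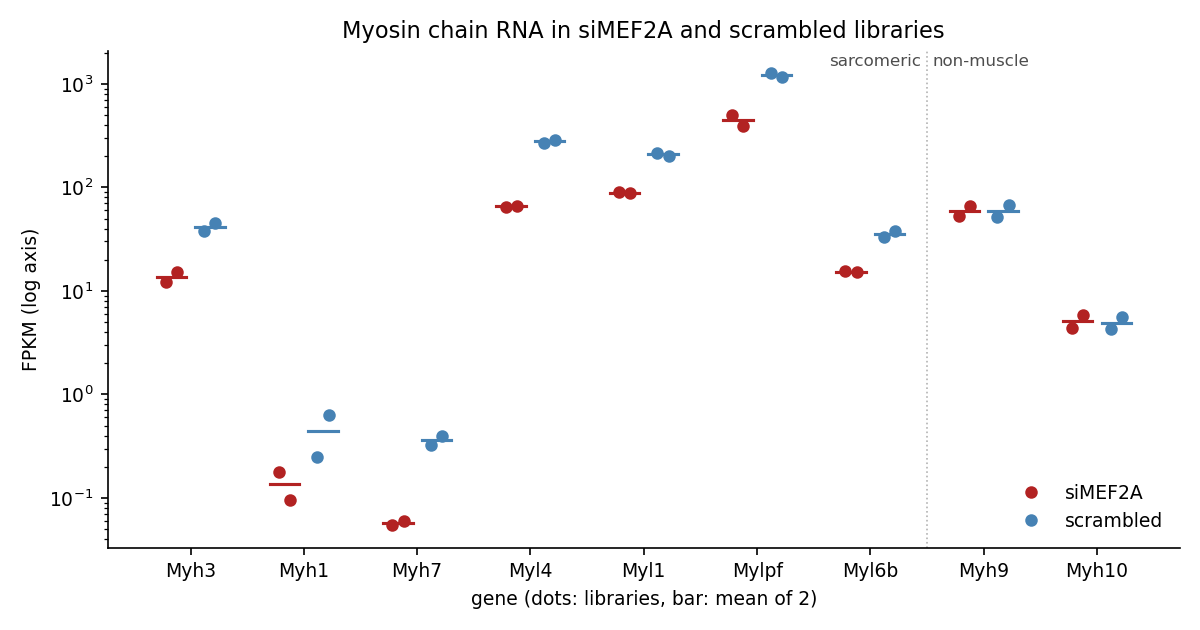
FPKM (log axis) of the 9 listed members in each library, siMEF2A (red) left of scrambled (blue), with a bar at the mean of the 2 libraries of a group. Each listed sarcomeric member lies lower in both siMEF2A libraries than in either scrambled library, whereas the points of Myh9 and Myh10 overlap. Myh1 and Myh7 lay under the level needed for a test. How many of all genes separate in this way was not counted, and an exact permutation test of 2 against 2 libraries cannot go below p = 0.333.

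Among the sarcomeric heavy chain members that were listed, Myh3 carried nearly all of the RNA. Myh3 (ENSMUSG00000020908, chromosome 11, 67078300 to 67102291, plus strand, mm10) encodes the heavy chain of embryonic and regenerating muscle. It had 12.3 and 15.1 FPKM in siMEF2A, against 38.3 and 44.8 FPKM in scrambled libraries. Both siMEF2A libraries were below both scrambled ones. Its mean was 13.7 ± 1.96 FPKM in siMEF2A and 41.5 ± 4.64 FPKM in scrambled libraries (SD, n = 2 each), a level of 33.0% (log2 fold change -1.53 with SE 0.16, limma adjusted p = 2.99e-08). A single transcript, Myh3-202, accounted for at least 99.96% of it in each library.

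The adult heavy chains among the members were barely detected. Myh7, the heavy chain of slow fibres and of the heart, had 0.0545 and 0.0601 FPKM in siMEF2A, against 0.322 and 0.401 FPKM in scrambled libraries. Myh1, the fast IIx chain, had 0.177 and 0.0953 FPKM in siMEF2A, against 0.249 and 0.638 FPKM in scrambled libraries. Neither gene's groups overlapped, but both lay under the minimum level, and both missed the threshold when genes of any level were kept (limma adjusted p = 0.134 for Myh7 and 0.446 for Myh1). The lower scrambled value of Myh1 lay nearer to the siMEF2A values than to the other scrambled value.

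Myh3, Myh1 and Myh8 lie in the same cluster on chromosome 11, where Myh3 reached the minimum level, Myh1 did not, and Myh8 was not listed. Promoter sequences of heavy chains are shown for that reason and because the silenced factor binds DNA. Each runs 5′ to 3′ from 250 bases before the RefSeq start to 50 bases after it (300 bases, GRCm38.p6, RefSeq), and all 10 members had an entry. Capitals mark the E-box CANNTG, which reads the same on both strands, and matches to the MEF2 motif, searched on both strands. No match of one motif overlapped a match of the other.
Myh3, chr11:67078050-67078349, plus strand: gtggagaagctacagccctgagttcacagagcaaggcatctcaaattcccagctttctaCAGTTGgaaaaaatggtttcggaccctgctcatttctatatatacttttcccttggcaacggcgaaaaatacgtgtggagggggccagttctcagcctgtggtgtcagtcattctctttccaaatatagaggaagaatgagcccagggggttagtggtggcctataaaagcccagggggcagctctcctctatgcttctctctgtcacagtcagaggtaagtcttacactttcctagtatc
Myh1, chr11:67199852-67200151, plus strand: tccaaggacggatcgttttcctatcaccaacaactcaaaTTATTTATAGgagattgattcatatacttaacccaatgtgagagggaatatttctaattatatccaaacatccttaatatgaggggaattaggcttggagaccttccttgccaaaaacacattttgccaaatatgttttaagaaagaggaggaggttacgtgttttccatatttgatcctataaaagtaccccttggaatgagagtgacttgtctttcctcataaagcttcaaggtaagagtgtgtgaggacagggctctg
Myh8, chr11:67276874-67277173, plus strand: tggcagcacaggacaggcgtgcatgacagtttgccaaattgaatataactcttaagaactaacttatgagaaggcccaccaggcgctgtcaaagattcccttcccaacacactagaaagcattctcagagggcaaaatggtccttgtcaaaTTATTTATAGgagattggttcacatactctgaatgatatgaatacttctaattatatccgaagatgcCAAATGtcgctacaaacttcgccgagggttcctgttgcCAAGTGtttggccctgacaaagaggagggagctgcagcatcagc
Myh9, chr15:77842126-77842425, minus strand: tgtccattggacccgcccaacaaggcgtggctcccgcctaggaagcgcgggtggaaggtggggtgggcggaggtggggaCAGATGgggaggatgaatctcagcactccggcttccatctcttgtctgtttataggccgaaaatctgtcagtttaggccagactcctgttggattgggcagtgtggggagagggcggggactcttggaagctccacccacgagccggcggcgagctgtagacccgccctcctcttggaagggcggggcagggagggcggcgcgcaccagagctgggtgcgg

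The same MEF2 match, TTATTTATAG, stood 211 bases before the start of Myh1 and 99 bases before that of Myh8, and no other member's window held one. Of 32851 promoter windows of this length, 3.19% held a MEF2 match. The windows of Myh7, which like Myh1 was measured at under 1 FPKM, and of the 5 chains that fell held none. Among those 5, the windows of Myl4 and Myl1 lie 26618 and 9702 bases from the start of the most abundant listed transcript. The window of Myh3 held an E-box, CAGTTG, 191 bases before the start, and 72.3% of all windows held at least 1. No match says only that these letters are absent from these 300 bases. In CpG content the windows of most sarcomeric chains lay below those of Myh9 (64.7% G and C, 19 CpG) and Myh10 (62.7%, 18 CpG). They were Myh3 (48.0%, 4 CpG), Mylpf (55.3%, 2 CpG), Myl1 (47.3%, 7 CpG), Myh1 (38.0%, 3 CpG), Myh8 (44.7%, 6 CpG) and both windows of Myh7 (2 and 5 CpG). Those of Myl6b (67.3%, 20 CpG) and Myl4 (61.7%, 25 CpG) were near those of Myh9 and Myh10. The medians over all windows were 52.7% and 7 CpG.

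Myh3 made up 98.2% and 99.0% of the summed FPKM of Myh3, Myh1 and Myh7 in siMEF2A, against 98.5% and 97.7% in scrambled libraries. Myh7 made up 0.434% and 0.394% in siMEF2A, against 0.829% and 0.874% in scrambled libraries, so its share did not overlap between groups. The share of Myh1 overlapped, at 1.41% and 0.625% in siMEF2A and 0.640% and 1.39% in scrambled libraries. These shares are levels per length and descriptions. They leave out Myh8, Myh2 and Myh4, which were not listed and whose levels are not known here. They also leave out Myh7b, a listed sarcomeric heavy chain outside the members. Myh7b had 0.269 and 0.241 FPKM in siMEF2A, against 1.21 and 0.728 FPKM in scrambled libraries, above Myh1 and Myh7 in each library. An exact two-sided permutation test of 2 against 2 libraries cannot go below p = 0.333.

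The coding sequences of these heavy chains are close enough to bear on the estimates. Aligned coding bases were 80.3% identical between Myh3 and Myh1, 80.9% between Myh3 and Myh8, and 89.3% between Myh8 and Myh1. Of the 50-base words in the coding sequence of Myh8, 10.12% also occur in Myh1, against 1.66% of those of Myh3. Myh3 shared no such word with Myh7 or Myh9. How reads that fit several genes were assigned is not given in the sources used here, so the low values of Myh1 are uncertain where a read fits it and a neighbour.

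Myl4 fell furthest of the 5 chains that passed the test. It encodes the essential light chain of embryonic skeletal muscle and of the atrium (ENSMUSG00000061086, chromosome 11, 104550663 to 104595753, plus strand, mm10). It had 65.2 and 66.8 FPKM in siMEF2A, against 267 and 288 FPKM in scrambled libraries. The 2 libraries of each group lay close together and far from the other group. Its mean was 66.0 ± 1.14 FPKM in siMEF2A and 278 ± 15.0 FPKM in scrambled libraries (SD, n = 2 each), a level of 23.8% (log2 fold change -2.06 with SE 0.17, limma adjusted p = 3.02e-10).

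Myl1 is the essential light chain gene of fast skeletal fibres (ENSMUSG00000061816, chromosome 1, 66924295 to 66945404, minus strand, mm10). Its values were 89.9 and 88.0 FPKM in siMEF2A, against 215 and 201 FPKM in scrambled libraries. The groups were separate, with a mean of 88.9 ± 1.31 FPKM in siMEF2A and 208 ± 10.3 FPKM in scrambled libraries (SD, n = 2 each), a level of 42.7% (log2 fold change -1.22 with SE 0.17, limma adjusted p = 1.20e-05). Myl6b, an essential light chain of slow muscle that is also made outside muscle, fell as well. It had 15.5 and 15.1 FPKM in siMEF2A, against 33.1 and 37.7 FPKM in scrambled libraries, a level of 43.3% (log2 fold change -1.16 with SE 0.15, limma adjusted p = 3.66e-06).

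Myl4 kept less of its scrambled level than Myl1 or Myl6b did, and the makeup of the essential light chain RNA differed between the groups. Myl4 made up 38.2% and 39.3% of the summed essential light chain FPKM in siMEF2A, against 51.8% and 54.7% in scrambled libraries. Myl1 made up 52.7% and 51.8% in siMEF2A, against 41.8% and 38.1% in scrambled libraries. The order of these genes was turned round: there were 0.725 and 0.759 FPKM of Myl4 for each FPKM of Myl1 in siMEF2A, against 1.24 and 1.44 in scrambled libraries. Myl6b made up 9.08% and 8.89% in siMEF2A, against 6.41% and 7.15% in scrambled libraries. With the most abundant transcript of each gene alone, the mean ratio of Myl4 to Myl1 was 0.995 in siMEF2A and 1.86 in scrambled libraries, so that the genes came out level in siMEF2A.

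**Figure D2:**
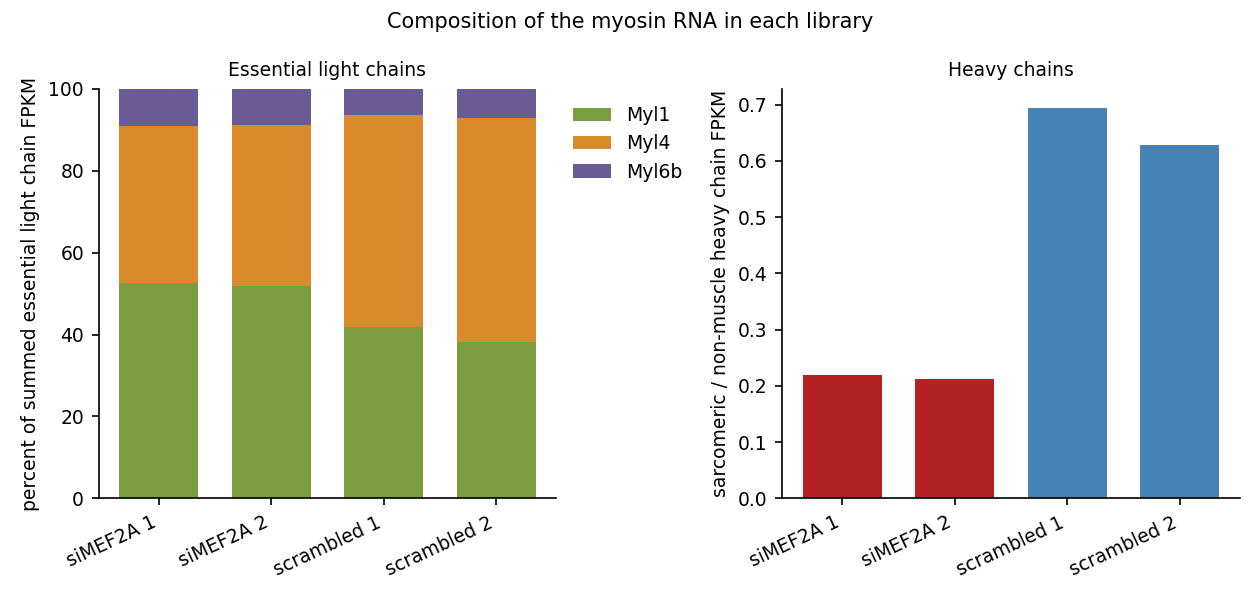
Left, the percent of the summed essential light chain FPKM that came from Myl1, Myl4 and Myl6b in each library. Right, the ratio of sarcomeric to non-muscle heavy chain FPKM over the listed members. Both siMEF2A bars hold less Myl4 than the scrambled bars, and the heavy chain ratio is 0.220 and 0.213 in siMEF2A, against 0.693 and 0.628 in scrambled libraries.

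Mylpf had the highest level of all members. It encodes the regulatory light chain of fast skeletal muscle, the chain that carries the phosphorylated site (ENSMUSG00000030672, chromosome 7, 127208890 to 127214298, plus strand, mm10). It had 504 and 392 FPKM in siMEF2A, against 1263 and 1159 FPKM in scrambled libraries. The siMEF2A libraries differed from each other more than those of any other light chain gene here, yet both stayed below the scrambled pair. Its mean was 448 ± 78.7 FPKM in siMEF2A and 1211 ± 73.4 FPKM in scrambled libraries (SD, n = 2 each), a level of 37.0% (log2 fold change -1.44 with SE 0.22, limma adjusted p = 6.55e-05). As a share of the 4 sarcomeric light chains it overlapped between groups, at 74.7% and 69.8% in siMEF2A and 71.0% and 68.8% in scrambled libraries.

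The promoter of Mylpf, the member with the most RNA, is shown in the same form, with its E-box in capitals.
Mylpf, chr7:127211358-127211657, plus strand: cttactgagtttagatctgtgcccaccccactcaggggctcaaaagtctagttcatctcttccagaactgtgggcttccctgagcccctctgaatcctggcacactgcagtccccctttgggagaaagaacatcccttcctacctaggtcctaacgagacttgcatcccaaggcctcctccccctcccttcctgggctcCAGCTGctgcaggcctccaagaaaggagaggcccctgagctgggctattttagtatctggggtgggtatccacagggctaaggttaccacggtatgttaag

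This E-box, CAGCTG, begins 51 bases before the start. The same letters occur 224 bases before the RefSeq start of Myl1, and the window of Myl4 held no E-box. That window of Myl4 lies 26618 bases from the start of its most abundant listed transcript, and that of Myl1 lies 9702 bases from its own, so neither shows the promoter of the transcript with the most RNA.

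The non-muscle heavy chains did not pass the test, and their groups overlapped. Myh9 had 52.7 and 65.8 FPKM in siMEF2A and 51.8 and 67.4 FPKM in scrambled libraries. The siMEF2A values lay inside the scrambled range (mean 59.2 ± 9.24 FPKM in siMEF2A and 59.6 ± 11.1 FPKM in scrambled libraries, SD, n = 2 each). Its log2 fold change was -0.0048, with a 95% interval from -0.35 to 0.34 (limma adjusted p = 0.9999), which is 78.7% to 126% of the scrambled level on the log2(FPKM + 1) scale. Myh10 had 4.36 and 5.87 FPKM in siMEF2A and 4.25 and 5.63 FPKM in scrambled libraries, with overlapping groups and an interval from -0.28 to 0.37 around a log2 fold change of 0.041 (limma adjusted p = 0.9999). Neither interval reaches the smallest change among the 5 sarcomeric chains tested, that of Myl6b, whose interval ran from -1.46 to -0.85.

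Over the listed members, without Myh7b, the ratio of sarcomeric to non-muscle heavy chain FPKM was 0.220 and 0.213 in siMEF2A, against 0.693 and 0.628 in scrambled libraries. Sarcomeric chains were 18.0% and 17.5% of the summed FPKM of these heavy chains in siMEF2A, against 40.9% and 38.6% in scrambled libraries. The ratio of Myh9 to Myh10 overlapped, at 12.1 and 11.2 in siMEF2A and 12.2 and 12.0 in scrambled libraries.

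Replicates differed with transcript length over all genes, and less evenly among the members. Myh3, Myh9 and Myh10, whose main transcripts are over 5000 bases long, were higher in replicate 2 of both groups, by 0.27 in siMEF2A and 0.22 in scrambled libraries for Myh3 and by 0.31 and 0.38 for Myh9 on the log2(FPKM + 1) scale. For Mylpf, whose main transcript is under 1000 bases long, the same difference was -0.36 in siMEF2A and -0.12 in scrambled libraries. Myl4 and Myl1, whose main transcripts are also under 1000 bases long, did not share its size: the difference was 0.035 in siMEF2A and 0.11 in scrambled libraries for Myl4, and -0.030 in siMEF2A and -0.10 in scrambled libraries for Myl1. Over all genes tested the median difference of replicate 2 minus replicate 1 was 0.202 in siMEF2A and 0.181 in scrambled libraries for main transcripts over 5000 bases, and -0.157 in siMEF2A and -0.141 in scrambled libraries for those up to 1000 bases. Between the groups the same medians were 0.075 and -0.045. The part of this shift in the members' changes was not tested.

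In siMEF2A the order of levels was Mylpf, Myl1, Myl4, Myh9, Myl6b, Myh3, Myh10, Myh1, Myh7, where Myl6b and Myh3 met at 15.1 FPKM. In scrambled libraries it was Mylpf, Myl4, Myl1, Myh9, Myh3, Myl6b, Myh10, with Myh1 and Myh7 last and overlapping. Myh9 stood above Myh3 in each of the 4 libraries, by more in siMEF2A: there were 0.234 and 0.230 FPKM of Myh3 for each FPKM of Myh9 in siMEF2A, against 0.739 and 0.665 in scrambled libraries.

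At the level of transcripts, 21 transcripts of the sarcomeric members were listed, 14 reached the minimum, 6 fell and 0 rose. Over the 23600 transcripts tested, 0.195% fell and 0.0297% rose. The 6 were Myh3-202, Myl4-202, Myl4-203, Myl1-202, Myl1-204 and Myl6b-201, with limma adjusted p between 0.006 and 0.031. Mylpf-201, which carried 97.4% to 98.6% of Mylpf, missed the threshold (limma adjusted p = 0.057). Of 6 listed transcripts of Myh9 and Myh10, 5 were tested and 0 passed in either direction. These calls were close to the limit. Without scrambled replicate 2, Myl6b-201 missed it (adjusted p = 0.051). In all, 0 of the 27 transcripts passed when transcripts of any level were kept, and 12 of 19 passed without siMEF2A replicate 1.

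Myl1 is known for making 2 proteins from alternative starts, the longer MLC1F from an upstream promoter and the shorter MLC3F from a promoter inside the gene. The first 60 coding bases of the transcript of each kind are shown because the transcripts differ there and share the rest (GENCODE M21, mm10, chromosome 1, minus strand). Capitals mark bases outside the shared stretch.
Myl1-201, upstream start, 188 codons: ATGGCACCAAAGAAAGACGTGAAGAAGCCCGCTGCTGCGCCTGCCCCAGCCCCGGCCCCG
Myl1-202, internal start, 150 codons: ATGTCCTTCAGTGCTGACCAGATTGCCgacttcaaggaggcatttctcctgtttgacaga

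From the 3′ end the pair share 423 identical coding bases, before which Myl1-201 has 141 of its own and Myl1-202 has 27. The start of Myl1-202 lies 9789 bases downstream of that of Myl1-201. The 3 listed transcripts with the internal start carried 92.7% and 93.6% of Myl1 in siMEF2A, against 95.9% and 95.1% in scrambled libraries. How the estimate divided reads of the shared stretch between the transcripts is not given in the sources used here.

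Myl1-202 had 53.8 and 52.5 FPKM in siMEF2A, against 133 and 127 FPKM in scrambled libraries, a level of 40.8% (log2 fold change -1.28 with SE 0.15, limma adjusted p = 0.026). The transcripts with an upstream start were low and did not all move alike. Myl1-201 had 1.62 and 1.04 FPKM in siMEF2A, against 4.90 and 3.73 FPKM in scrambled libraries, and missed the threshold (limma adjusted p = 0.102). Myl1-206, which starts upstream and has 124 codons in the annotation, had 4.97 and 4.51 FPKM in siMEF2A and 3.59 and 5.77 FPKM in scrambled libraries. Its groups overlapped, with a log2 fold change of 0.041 with SE 0.21, and it missed the threshold.

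Myl4-202 and Myl4-203 hold the same 579 coding bases and differ upstream of them. Myl4-202 had 52.0 and 53.8 FPKM in siMEF2A, against 228 and 256 FPKM in scrambled libraries (log2 fold change -2.17 with SE 0.16, limma adjusted p = 0.006). Myl4-203 had 11.8 and 12.0 FPKM in siMEF2A, against 32.9 and 26.5 FPKM in scrambled libraries (log2 fold change -1.25 with SE 0.16, limma adjusted p = 0.031), and without scrambled replicate 1 it missed the threshold (adjusted p = 0.058). Myl4-202 made up 79.7% and 80.5% of Myl4 in siMEF2A, against 85.3% and 88.8% in scrambled libraries, without overlap. The retained intron form Myl4-208 had 0.944 and 0.905 FPKM in siMEF2A, against 3.92 and 2.98 FPKM in scrambled libraries, and missed the threshold (limma adjusted p = 0.075).

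**Figure D3:**
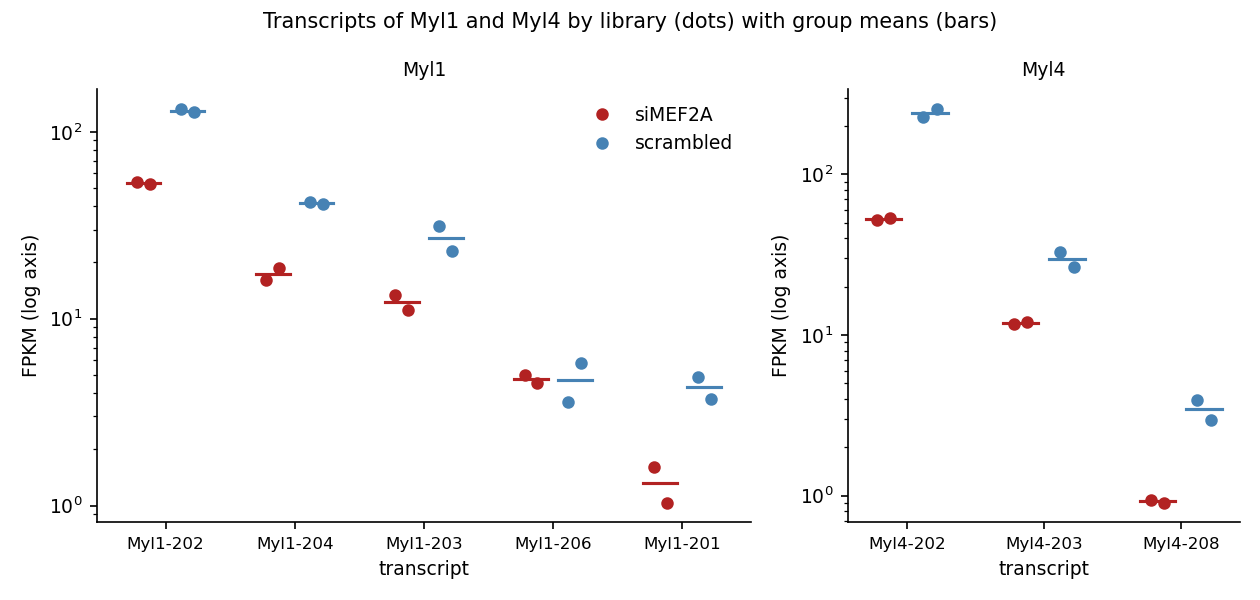
FPKM (log axis) of the tested transcripts of Myl1 (left) and Myl4 (right), siMEF2A (red) left of scrambled (blue), with bars at group means. The groups are separate for each transcript shown except Myl1-206, where siMEF2A had 4.97 and 4.51 FPKM and scrambled libraries 3.59 and 5.77 FPKM. How many of all transcripts separate in this way was not counted.

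Most tested genes of thick filament and M-band proteins also fell in RNA level. Of 14 genes of thick filament and M-band proteins, 9 were listed and 7 tested, of which 5 fell (Mybph, Myom2, Ttn, Obsl1 and Trim54) and 0 rose. Trim63 was at 66.5% and Trim55 at 73.0%, and both missed the threshold (limma adjusted p = 0.111 for Trim63 and 0.266 for Trim55). The median log2 fold change was -0.88, beside 0.045 over all genes tested. Mybph, a myosin-binding protein of the C family, had 22.1 and 24.0 FPKM in siMEF2A, against 53.5 and 65.0 FPKM in scrambled libraries (38.9%, limma adjusted p = 6.38e-07). Myom2, an M-band protein that ties thick filaments together, was at 42.1% (limma adjusted p = 8.23e-06). Ttn is the giant spring that spans the sarcomere from Z-disc to M-band. It had 1.007 and 1.008 FPKM in siMEF2A, against 2.56 and 3.40 FPKM in scrambled libraries, or 33.8% of the mean. On the log2(FPKM + 1) scale of the test its log2 fold change was -0.98 (limma adjusted p = 4.91e-05). The interval on that scale was 41.1% to 62.7%. Obsl1, an obscurin relative of the M-band, was at 46.9% (limma adjusted p = 0.00027), but missed the threshold with its most abundant transcript alone (adjusted p = 0.882). Trim54, a muscle RING-finger protein, was at 55.5% (limma adjusted p = 0.025), and it missed the threshold without siMEF2A replicate 1 (adjusted p = 0.068), without siMEF2A replicate 2 (adjusted p = 0.135), without scrambled replicate 2 (adjusted p = 0.200) and after quantile normalization (adjusted p = 0.062). Myom1 and Myom3, relatives of Myom2, were under the minimum. Myom1 had 0.416 and 0.456 FPKM in siMEF2A, against 1.29 and 1.43 FPKM in scrambled libraries, and both passed as lower with genes of any level kept (limma adjusted p = 0.0037 for Myom1 and 0.023 for Myom3).

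Of 11 genes of myosin folding and assembly, all were listed and 10 tested, of which 2 fell, both known for striated muscle, and 0 rose. Smyd1, a methyltransferase of striated muscle that takes part in sarcomere assembly, had 2.25 and 2.27 FPKM in siMEF2A, against 4.60 and 5.13 FPKM in scrambled libraries (46.5%, limma adjusted p = 0.00034). Unc45b, the myosin chaperone of striated muscle, had 2.30 and 2.09 FPKM in siMEF2A, against 3.57 and 4.44 FPKM in scrambled libraries (54.8%, limma adjusted p = 0.013). Unc45b missed the threshold without siMEF2A replicate 2 (adjusted p = 0.119) and without scrambled replicate 2 (adjusted p = 0.202). Unc45a, the chaperone of most other cells, was at 68.0% and missed it (limma adjusted p = 0.233). Murc, a caveola protein of muscle, was at 70.7% and missed it too (limma adjusted p = 0.158). The general chaperones Hsp90aa1, Hsp90ab1, Hspa8, Dnaja1 and Cct5 were at 91.6% to 117% of their scrambled levels, and 0 of these passed. The median log2 fold change of the 10 was -0.036.

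Of 12 genes that phosphorylate or dephosphorylate the regulatory light chain, 10 were tested and 0 passed in either direction. Their median log2 fold change was 0.075. Mylk2, the light chain kinase of skeletal muscle whose substrate is the product of Mylpf, had 1.33 and 1.40 FPKM in siMEF2A and 1.27 and 1.15 FPKM in scrambled libraries. Its groups did not overlap, but the difference was small and missed the threshold (log2 fold change 0.097, interval -0.20 to 0.39, limma adjusted p = 0.9999). Ppp1cb, the catalytic subunit of myosin phosphatase, was at 116% (limma adjusted p = 0.9999), and Rock2, the kinase that inhibits that phosphatase, was at 115% (limma adjusted p = 0.9999). The phosphatase targeting subunits Ppp1r12a and Ppp1r12c were at 110% and 91.6%.

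Of 16 other myosin II genes, 5 were listed and 4 tested, and 0 passed in either direction. Those 4 are light chains that pair with non-muscle and smooth muscle heavy chains. Myl6, the essential light chain of Myh9 and Myh10, had 997 and 908 FPKM in siMEF2A and 958 and 973 FPKM in scrambled libraries, with overlapping groups. That is above each sarcomeric chain in siMEF2A and above each but Mylpf in scrambled libraries. Myl12a was at 90.0% and Myl12b at 98.3%, both with a limma adjusted p of 0.9999. Myl9, a regulatory light chain of smooth muscle, was lower in both siMEF2A libraries, at 73.0 and 79.3 FPKM against 103 and 113 FPKM in scrambled libraries, and missed the threshold (70.4%, limma adjusted p = 0.172). Myh7b was under the minimum, at 0.269 and 0.241 FPKM in siMEF2A, against 1.21 and 0.728 FPKM in scrambled libraries, and passed with genes of any level kept (limma adjusted p = 0.019).

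**Figure D4:**
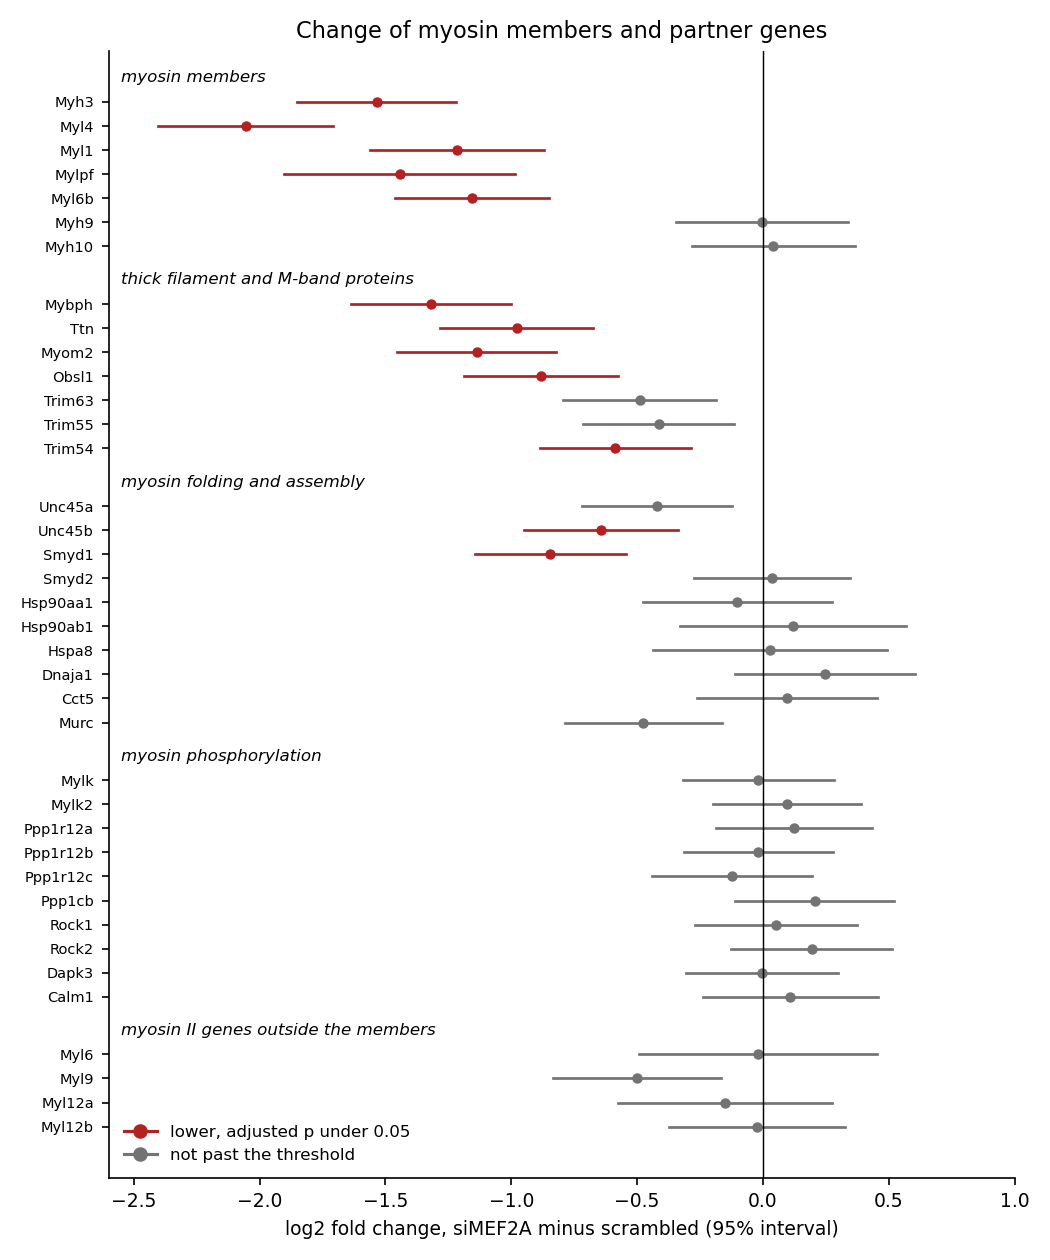
Log2 fold change, siMEF2A minus scrambled, of the tested members and of every tested gene of the partner lists, with the 95% interval of each gene by itself (not adjusted for the number of genes). Red marks genes lower at an adjusted p under 0.05: 5 sarcomeric chains, 5 thick filament and M-band genes, Unc45b and Smyd1. Gray intervals that leave out 0 belong to genes that missed the adjusted threshold.

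Markers of other cell types were read beside these values. Of 6 smooth muscle or myofibroblast markers, 3 were listed and 1, Tagln, fell, to 57.5% (limma adjusted p = 0.0017, and 0.054 without siMEF2A replicate 1), while Myh11, Cnn1 and Myocd were not listed. Their summed level was 506 to 597 FPKM in siMEF2A and 654 to 788 FPKM in scrambled libraries. All 5 fibroblast markers were tested and 0 passed, with sums of 1151 to 1432 FPKM in siMEF2A and 865 to 1277 FPKM in scrambled libraries. Of 6 cardiac markers 2 were listed, with sums of 1.56 to 1.85 FPKM in siMEF2A and 1.45 to 2.52 FPKM in scrambled libraries, and the cardiac chains Myh6, Myl2 and Myl7 were not among them. Of 5 adipocyte markers 2 were tested and 0 passed, and these went opposite ways without overlap between groups. Fabp4 was at 50.75% (limma adjusted p = 0.061) and Pparg at 129% (limma adjusted p = 0.959). When a library was left out, the log2 fold change ran from -0.75 to -0.37 for Fabp4 and from 0.16 to 0.39 for Pparg. Their sums were 3.59 to 4.44 FPKM in siMEF2A and 4.15 to 4.39 FPKM in scrambled libraries. Their part in the members' changes was not tested.

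The genes whose 4 values most resembled those of Myh3, by the Euclidean distance of centred log2(FPKM + 1) values over 4 libraries, included Mybph (0.246), Apobec2 (0.268), Cox6a2 (0.272) and Casq1 (0.293). Mybph thus stands in the list of thick filament proteins as well. Casq1 had 0.257 and 0.140 FPKM in siMEF2A, against 2.20 and 2.81 FPKM in scrambled libraries. That is a level of 7.94%, beside 33.0% for Myh3, so the likeness holds on the log2(FPKM + 1) scale only. With a pseudocount of 0.1 FPKM the log2 fold change was -3.14 for Casq1 and -1.595 for Myh3. Casq1 reached the minimum mean of 1 FPKM through the scrambled libraries alone. Those nearest to Mylpf were the troponin genes Tnni2 (0.156), Tnni1 (0.171) and Tnnc1 (0.197), with Itgb1bp2 (0.188) between them and BC051019 (0.243) after them. Tnni2, the fast troponin I, had 60.4 and 46.8 FPKM in siMEF2A, against 172 and 155 FPKM in scrambled libraries. Tnni1, the slow troponin I, had 85.4 and 71.6 FPKM in siMEF2A, against 246 and 231 FPKM in scrambled libraries. In both, as in Mylpf, replicate 1 was the higher library of each group. This likeness rests on 4 libraries and describes their order and spacing only.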

How the data were processed

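RNA was sequenced from 4 libraries of C2C12 cells, 2 siMEF2A and 2 scrambled. The authors deposited FPKM per Ensembl transcript in each library, with symbol and locus, per the file headers. CASAVA, Trimmomatic, TopHat, Bowtie, Cufflinks and the build mm10 are named without versions, per the submitters' processing notes. Not given in the sources used here: the annotation, any scaling between libraries, the use of strand and the rule for listing transcripts. Overlapping or antisense genes can therefore not be told apart, and sums leave out unlisted transcripts.

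FPKM were summed per symbol without 27 small RNA symbols. Genes averaging 1 FPKM or more were tested as log2(FPKM + 1), a scale that understates changes of low genes. The two-sided test was limma's (version 3.58.1, R 4.3.3) with a trend of variance on level. Over genes it had 2 residual and 30 prior degrees of freedom. The fit over transcripts had its own prior, whose degrees of freedom are not given here. P-values carry the Benjamini-Hochberg adjustment over all genes, or over all transcripts, and calls were made under 0.05. Relative depth was the commonest ratio of low values between libraries among 600 genes, shared by 11 to 17 of them, and assumes no other scaling. Transcript structures came from GENCODE M21, in which 97.3% of the transcripts were found, and promoters from RefSeq. Named genes were the members, Mef2a, up to 4 tested genes of each list with the smallest p, and the 5 genes nearest to Myh3 and to Mylpf. The result of 1 gene that this rule names is not reported here. Trim54, Trim55, Trim63, Myom1, Myom3, Myh7b, Mylk2 and the general chaperones were named after their values were seen. Members and lists were chosen with earlier results of these data known.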

Additional observations from a re-analysis of the deposited data

How the results depend on the processing

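The 11 alternatives for genes were a pseudocount of 0.1 FPKM, no filter, median-ratio scaling, quantile normalization, no intensity trend, the most abundant transcript only, a replicate block and leaving out each library. Under all 11 the same 5 sarcomeric members were lower, with a limma adjusted p of at most 0.023 (Mylpf without siMEF2A replicate 2), and Myh9 and Myh10 missed the threshold. Over all genes, 48 were higher, against 29 with the pseudocount of 0.1, 29 without the filter, 14 and 11 after median-ratio and quantile scaling, 25 without the trend and 41 to 74 when a library was left out. The 2 scalings moved the median log2 fold change by -0.043 and -0.030. Of the members' transcripts, 6 passed, against 0 without the filter and 5 to 12 when a library was left out. With the most abundant transcript only, Myl4 was 43.6% of the essential light chains in siMEF2A and 59.3% in scrambled libraries, and the sarcomeric to non-muscle heavy chain ratio was 0.238 in siMEF2A and 0.736 in scrambled libraries. The cause of these differences was not tested.

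The labels number the libraries 1 and 2 in both groups without saying that a number marks a shared culture. Deviations of same-numbered libraries from their group means correlated at 0.291 across the genes tested, with only 2 pairs. With the replicate block, 288 genes were lower and 220 higher, 12 genes of the partner lists passed instead of 7, and 0 transcripts of the members passed. Under the block Cd34 also passed as higher (limma adjusted p = 0.014), and Myod1 (0.011), Myl9 (0.009), Unc45a (0.021), Murc (0.009), Acta2 (0.043) and Fabp4 (0.044) as lower. All 7 tested genes of thick filament and M-band proteins passed under it, Trim63 and Trim55 included. There were 2 libraries a group, and absolute depth was unknown. Myh1 and Myh7 averaged under the minimum of 1 FPKM, so they were tested only with genes of any level kept, where both missed the threshold.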
